A study of Mus musculus with 3 samples.

Results

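The genes described here are the 10 of the vascular endothelial growth factor (VEGF) and angiopoietin signals: the ligands *Vegfa*, *Angpt1* and *Angpt2*, the receptors *Kdr*, *Flt1*, *Nrp1* and *Tek*, the partner receptor *Tie1*, and the endothelial markers *Plvap* and *Pecam1*. They were taken by symbol from a list chosen with earlier results of these data known, and all 10 were present among the 27998 genes of the files. Whole kidney was dissociated 14 days after folic acid (FA), which injures the tubules and leaves fibrosis, and profiled by droplet scRNA-seq with 1 library per mouse. The libraries are replicates 2 and 3 of the *Aoah-/-* group and replicate 3 of the WT group. No uninjured kidney was among these libraries, so every level below was measured after FA. *Aoah-/-* mice lack acyloxyacyl hydrolase in the whole body, the mutated gene had been backcrossed to C57/BL6J, and the controls were WT littermates; the labels give an age of 6 to 8 weeks for all mice. In this assay each captured RNA molecule carries a cell barcode and a unique molecular identifier (UMI). Only the 3' ends of transcripts are read. The counts are given per gene, so splice forms of *Vegfa* and the soluble and membrane forms of *Flt1* cannot be told apart.

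VEGF-A is the main growth factor of blood vessels. It binds 2 receptor tyrosine kinases of endothelial cells, VEGFR2 (*Kdr*), which carries most of the signal, and VEGFR1 (*Flt1*), which binds the ligand tightly and signals weakly, while neuropilin-1 (*Nrp1*) is a co-receptor. Angiopoietin-1 (*Angpt1*) activates the receptor TIE2 (*Tek*) and keeps vessels quiet, angiopoietin-2 (*Angpt2*) is released by endothelial cells themselves and mostly opposes it, and TIE1 (*Tie1*) modulates TIE2. PLVAP forms the diaphragms of fenestrated capillaries, and PECAM-1 is an adhesion molecule of endothelial junctions. In the kidney, podocytes and tubular epithelium are known sources of VEGF-A for the glomerular and peritubular capillaries beside them.

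The receptor genes *Kdr*, *Flt1*, *Tie1* and *Tek* share a pattern of expression across cell classes (below), which *Nrp1* does not. The stretch upstream of their start sites is therefore shown for these 4. Each line gives the 250 bases before the RefSeq start on GRCm38.p6, read 5' to 3' on the strand of the gene (6 of the 10 genes had a promoter in the RefSeq table used), from chr5:75978456-75978705 (minus strand), chr5:147726012-147726261 (minus), chr4:118489850-118490099 (minus) and chr4:94739039-94739288 (plus). Capitals mark GGAA, the core bound by ETS factors, and its reverse complement TTCC.
Kdr promoter: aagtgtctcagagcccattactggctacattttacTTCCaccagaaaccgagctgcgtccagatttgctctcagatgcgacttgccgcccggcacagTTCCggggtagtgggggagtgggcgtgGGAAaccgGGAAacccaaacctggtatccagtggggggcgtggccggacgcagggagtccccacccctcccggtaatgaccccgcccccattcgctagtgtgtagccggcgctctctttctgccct
Flt1 promoter: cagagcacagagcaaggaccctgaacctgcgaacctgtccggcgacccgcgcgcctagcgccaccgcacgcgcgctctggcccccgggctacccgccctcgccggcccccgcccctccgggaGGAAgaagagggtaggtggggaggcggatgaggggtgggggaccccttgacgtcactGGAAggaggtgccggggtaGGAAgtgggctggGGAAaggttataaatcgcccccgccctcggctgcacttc
Tie1 promoter: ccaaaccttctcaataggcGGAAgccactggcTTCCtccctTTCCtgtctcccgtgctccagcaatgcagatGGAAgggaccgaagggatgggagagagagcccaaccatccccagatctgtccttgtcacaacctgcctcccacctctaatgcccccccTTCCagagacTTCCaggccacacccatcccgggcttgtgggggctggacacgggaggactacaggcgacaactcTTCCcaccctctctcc
Tek promoter: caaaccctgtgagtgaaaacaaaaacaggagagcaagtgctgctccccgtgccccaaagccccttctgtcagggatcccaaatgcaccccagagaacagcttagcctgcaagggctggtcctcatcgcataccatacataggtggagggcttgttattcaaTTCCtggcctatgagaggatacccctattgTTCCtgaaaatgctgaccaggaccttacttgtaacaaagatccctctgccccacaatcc
The core occurred 4 times in the *Kdr* window, 4 times in the *Flt1* window, 7 times in the *Tie1* window and 2 times in the *Tek* window. At least 1 match was found in 93.4% of the 32851 RefSeq promoters of this length, with a median of 3. At least 2 matches were found in 76.8% of them, at least 4 in 33.4% and at least 7 in 3.82%. The *Nrp1* window, not shown, held 4. One *Vegfa* window held 6 matches and the other 2, so the count did not set the receptors apart from the ligand. A match is a description of the letters in the window, not of a bound site.

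On GRCm38 (GENCODE M21), the VEGF receptor genes *Kdr* (chr5:75932827-75978458) and *Flt1* (chr5:147561604-147726011) lie on the same chromosome, as do *Tie1* (chr4:118471191-118490061) and *Tek* (chr4:94739289-94874976). *Nrp1* (chr8:128358604-128503363), *Plvap* (chr8:71497765-71511752) and *Angpt2* (chr8:18690263-18741562) lie on chromosome 8. *Vegfa* is at chr17:46016993-46032369, *Angpt1* at chr15:42424723-42676977 and *Pecam1* at chr11:106654217-106750628. The RefSeq start used for the *Tie1* window lies inside *Tie1* as placed here, so most of that window is not upstream of the GENCODE start.

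After barcodes with under 200 genes or over 50% mitochondrial UMIs were left out, 21368, 19692 and 18202 cells remained in *Aoah-/-* replicate 2, *Aoah-/-* replicate 3 and WT replicate 3, with medians of 3357 to 3859 UMIs, and any pair of libraries shared 171 to 176 barcodes. Values in 3 libraries are given in this order throughout. *Aoah* was counted at 6.75, 6.19 and 18.2 UMIs per 1000000 UMIs of these cells, lower in both *Aoah-/-* libraries but not absent. The deleted part of the gene is not given in the sources used here, so these 3' counts are a partial check of the labels. The calling of cells was not alike, since the lowest barcode held 500, 1672 and 500 UMIs. *Aoah-/-* replicate 3 stood apart in 2 ways that touch the receptors: it had more endothelial RNA in other classes (*Plvap* at 2.37, 19.0 and 0.496 UMIs per 1000000 in distal convoluted tubule-like cells), and it held 1982 of the 2265 cells of an unnamed cluster that carried endothelial and proximal tubule RNA together. Cells were named by markers that did not include the 10 genes, which were also left out of the clustering. The endothelial-like class held 971, 1159 and 666 cells (4.54%, 5.89% and 3.66%), and all 11 of its markers were detected in each library, with summed levels of 6962, 7187 and 7091 CPM, UMIs per 1000000 UMIs of the class. No cluster could be named podocyte, so that source of VEGF-A is not described.

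Most *Vegfa* UMIs were counted in tubular classes in these kidneys. Classes were ranked where they had at least 50 cells in each library, which 16 did, and the mural-like and fibroblast-like cells are given apart. Among the 16, principal-like cells of the collecting duct had the highest *Vegfa* level, at 159.6, 135.5 and 171.9 CPM. Proximal tubular epithelial cell (PTEC)-like cells followed at 117.4 CPM (95% interval 114.5 to 120.3), 129.9 (126.7 to 133.1) and 141.2 (138.4 to 143.9), and intercalated-like cells stood at 121.8, 110.7 and 129.9 CPM. These exact Poisson intervals cover counting error only. Ascending limb-like cells were at 106.4, 78.4 and 132.7 CPM and distal convoluted tubule-like cells at 101.0, 83.5 and 121.4 CPM. Principal-like cells lay above PTEC-like cells within each of the 3 libraries, and their range did not overlap that of intercalated-like, ascending limb-like or distal convoluted tubule-like cells. From PTEC-like to distal convoluted tubule-like cells, each class overlapped its neighbour in the order. Granulocyte-like cells, at 116.2, 123.5 and 91.1 CPM, were the only non-tubular class among these 6 ranked classes. Urothelial-like cells (75.1, 79.3 and 69.6 CPM) came next and did not overlap the distal convoluted tubule-like cells. Outside the ranking, fibroblast-like cells held 7, 10 and 285 *Vegfa* UMIs among 37860, 80085 and 2690379 UMIs of the class. Mural-like cells held 20, 86 and 26 among 401552, 1349238 and 204796. In the WT library both levels lay within the range of the tubular classes, while the *Aoah-/-* mural-like levels lay below it.

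Because PTEC-like cells were numerous, they held most of the *Vegfa* molecules. They accounted for 53.9%, 53.6% and 71.2% of the *Vegfa* UMIs of named and unnamed cells together. The 5 tubular classes (PTEC, ascending limb, distal convoluted tubule, principal and intercalated) held 78.7%, 77.5% and 87.8%. The endothelial-like class held 1.62%, 2.05% and 0.871%, at levels of 44.0, 39.1 and 38.4 CPM. The endothelial-like level was 0.375, 0.301 and 0.272 times the PTEC-like level, below it in 3 of 3 libraries. With each cell thinned to 1000 UMIs, a *Vegfa* UMI was seen in 8.89%, 10.4% and 11.1% of PTEC-like cells, against 1.45%, 1.06% and 1.05% of T lymphocyte-like cells. That class serves as the background of free RNA here, but it had the lowest *Vegfa* level of the ranked classes and may set the background too low. Barcodes left out by the filters (under 200 genes or over 50% mitochondrial UMIs) held *Vegfa* at 47.2, 40.6 and 41.3 CPM. Each held at least 500 UMIs, so cells may be among them, and their value is not a measure of free RNA alone. The part of free RNA in the endothelial-like level was not tested. Thinning left out 1903, 0 and 1792 shallower PTEC-like cells, and the unthinned shares were 31.9%, 46.4% and 38.03%. Median depths before thinning were 5380, 6406 and 6930 UMIs in the PTEC-like cells used and 2502, 2962 and 2962 UMIs in the T lymphocyte-like cells.

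*Angpt1*, the agonist of TIE2, was also counted mostly in tubules. Principal-like cells were at 52.0, 40.0 and 32.3 CPM, above the other 15 classes that had enough cells to be ranked, and their lowest library exceeded the highest library of the next class. That class, natural killer-like cells, was at 9.63, 13.9 and 14.0 CPM, from only 5, 7 and 8 UMIs. Outside the ranking, mural-like cells held 9, 13 and 4 *Angpt1* UMIs among 401552, 1349238 and 204796 UMIs of the class. Fibroblast-like cells held 0, 1 and 13. PTEC-like cells were at 12.7, 13.8 and 7.71 CPM, and distal convoluted tubule-like cells at 13.2, 11.2 and 12.7 CPM. Below the principal-like cells each class overlapped its neighbour in the order. The 5 tubular classes held 82.8%, 79.3% and 85.7% of the *Angpt1* UMIs. Endothelial-like cells held 3.96%, 4.52% and 3.19%, at 10.7, 9.09 and 8.84 CPM.

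*Angpt2* went the other way. Among the ranked classes, those with at least 50 cells in each library, its highest level was in endothelial-like cells. They were at 14.1, 16.9 and 14.6 CPM, and no other ranked class overlapped them. Granulocyte-like cells were at 3.17, 4.06 and 2.07 CPM and ascending limb-like cells at 3.14, 2.15 and 2.91 CPM. In PTEC-like cells *Angpt2* rested on 9, 10 and 11 UMIs. Endothelial-like cells held 37.6%, 46.0% and 46.6% of its UMIs, and the 5 tubular classes held 33.3%, 22.1% and 32.0%. Mural-like cells, with 77, 275 and 33 cells and so outside the ranking, were at 39.9, 16.3 and 19.5 CPM from 16, 22 and 4 UMIs. They lay above the endothelial-like cells in *Aoah-/-* replicate 2 and in the WT library. Of the 3 ligands, *Vegfa* and *Angpt1* were thus counted mainly in tubules, and *Angpt2* was not, so the label of tubular ligands holds for 2 of 3.

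**Figure D1:**
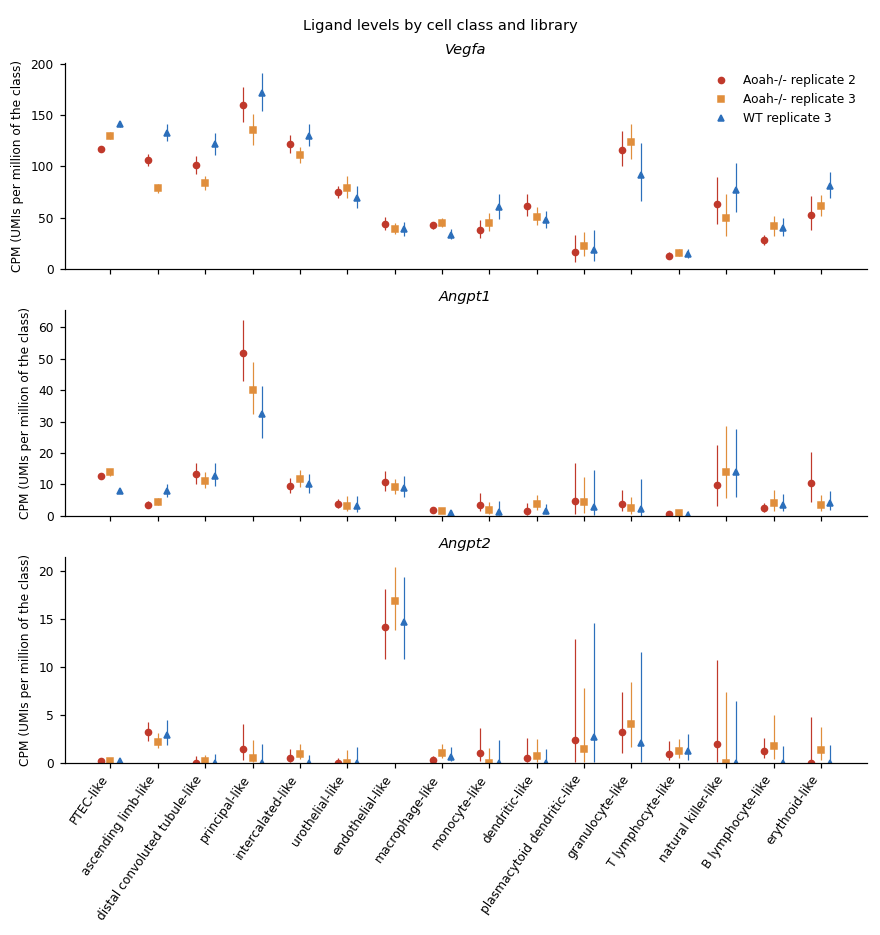
Levels of the ligands *Vegfa*, *Angpt1* and *Angpt2* in 16 cell classes, in CPM (linear axes from 0). Points are libraries (2 *Aoah-/-*, 1 WT) and bars exact Poisson 95% intervals for counting error. *Vegfa* is spread over tubular classes, *Angpt1* peaks in principal-like cells (32.3 to 52.0 CPM) and *Angpt2* in endothelial-like cells (14.1 to 16.9 CPM).

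Among the ranked classes, the receptors for these ligands all had their highest level in endothelial-like cells. *Kdr* was at 921.7 CPM (95% interval 893.5 to 950.6), 1070 (1045 to 1097) and 678 (650.1 to 706.8) in that class. The next ranked class, plasmacytoid dendritic-like cells, was at 39.4, 71.5 and 10.5 CPM. *Kdr* rested on 44, 67 and 14 UMIs in PTEC-like cells, at 0.803, 1.38 and 0.192 CPM. The endothelial-like level was thus 1149, 775 and 3535 times the PTEC-like level, although the denominators rest on few counts. Endothelial-like cells held 89.1%, 83.6% and 79.4% of the *Kdr* UMIs, and the 5 tubular classes held 1.94%, 3.69% and 1.18%. The lower WT share stood beside an unnamed cluster of 150 WT cells with mesothelial and fibroblast markers, which held 405 of the 2801 *Kdr* UMIs of that library.

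*Flt1* was at 1291, 1598 and 1426 CPM in endothelial-like cells. Among the ranked classes monocyte-like cells came second, at 71.0, 53.0 and 87.7 CPM, and their lowest library lay above the highest library of the third class, dendritic-like cells (8.83, 12.7 and 12.7 CPM). VEGFR1 is a known receptor of monocytes. Outside the ranking, mural-like cells were at 204.2, 84.5 and 4.88 CPM from 82, 114 and 1 UMIs, and the unnamed cluster of mixed endothelial and proximal tubule RNA at 228.7, 104.9 and 291.3 CPM. Endothelial-like cells held 86.9%, 84.9% and 90.3% of the *Flt1* UMIs.

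*Nrp1* stood apart from the other receptors by its spread over classes. Endothelial-like cells had its highest level, at 1174, 1164 and 1053 CPM. Ascending limb-like cells were at 157.5, 164.8 and 117.3 CPM, macrophage-like cells at 93.2, 141.5 and 100.8 CPM, and monocyte-like cells at 103.8, 124.6 and 90.9 CPM. These overlapped each other. The 5 tubular classes held 39.0%, 28.7% and 35.5% of the *Nrp1* UMIs, against 37.5%, 42.4% and 37.5% in endothelial-like cells: close in 2 libraries and lower in *Aoah-/-* replicate 3. Its level was also high in the small stromal classes. Mural-like cells were at 413.4, 340.9 and 366.2 CPM. The fibroblast-like cells, 354 of 384 of which came from the WT library, were at 233.1 CPM there (627 UMIs). Neuropilin-1 is also a known receptor of semaphorins.

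The angiopoietin receptors followed *Kdr* and *Flt1*. *Tek* was at 317.5, 380.9 and 326.7 CPM in endothelial-like cells, with 88.6%, 84.5% and 73.5% of its UMIs there. Its WT share was lower as well: the fibroblast-like cells of the WT library were at 116.3 CPM (313 UMIs), whereas the 11 and 19 fibroblast-like cells of the *Aoah-/-* libraries gave 1 and 0 UMIs. *Tie1* was at 394.8, 417 and 353.8 CPM in endothelial-like cells and held 87.6%, 82.9% and 90.0% of its UMIs there.

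The endothelial markers gave the frame for these values. *Plvap* was at 1030, 1364 and 1108 CPM and *Pecam1* at 986.3, 955 and 941.6 CPM in endothelial-like cells, with 87.8%, 82.3% and 92.0% of the *Plvap* UMIs and 76.8%, 78.8% and 84.2% of the *Pecam1* UMIs. *Pecam1* was also counted in B lymphocyte-like cells, at 84.7, 70.2 and 72.1 CPM, and in plasmacytoid dendritic-like cells, at 90.3, 77.1 and 52.3 CPM. PECAM-1 is known on leukocytes. For each of the 7 receptor and marker genes, the endothelial-like class exceeded the next ranked class without overlap. In *Aoah-/-* replicate 3 the tubular share of *Plvap* was 5.49%, against 2.53% and 2.38% in the other libraries.

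Per cell, the thinned shares gave the same picture. A *Flt1* UMI was seen in 68.9%, 72.4% and 69.9% of endothelial-like cells at 1000 UMIs, against 0.121%, 0.334% and 0% of T lymphocyte-like cells. The 0 of 1046 WT cells allows a share of cells with a UMI of up to 0.287% by a floor of 3 cells, and up to 0.352% by the exact 95% interval, at this depth. Unthinned, the *Flt1* shares were 91.4%, 95.5% and 92.9%. For *Kdr* the thinned shares were 44.96%, 52.2% and 45.2%, against a background of 0.0606%, 0.334% and 0.0956%. *Nrp1* was seen in 56.6%, 57.6% and 62.2% of endothelial-like cells, but also in 5.39%, 5.73% and 7.55% of T lymphocyte-like cells. Those cells ranked 7 of the 16 classes for *Nrp1*, at 64.6, 67.2 and 87.0 CPM. The lowest class, B lymphocyte-like cells, was at 11.5, 16.4 and 8.60 CPM. T lymphocyte-like cells are thus no plain background for this gene, and the part of free RNA in their share was not tested. *Tek* was seen in 27.8%, 31.8% and 30.1% of endothelial-like cells and *Tie1* in 35.1%, 34.9% and 33.4%. These shares depend on the level of a gene and on its capture, and median depths were 3299, 4032 and 3348 UMIs in endothelial-like cells.

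**Figure D2:**
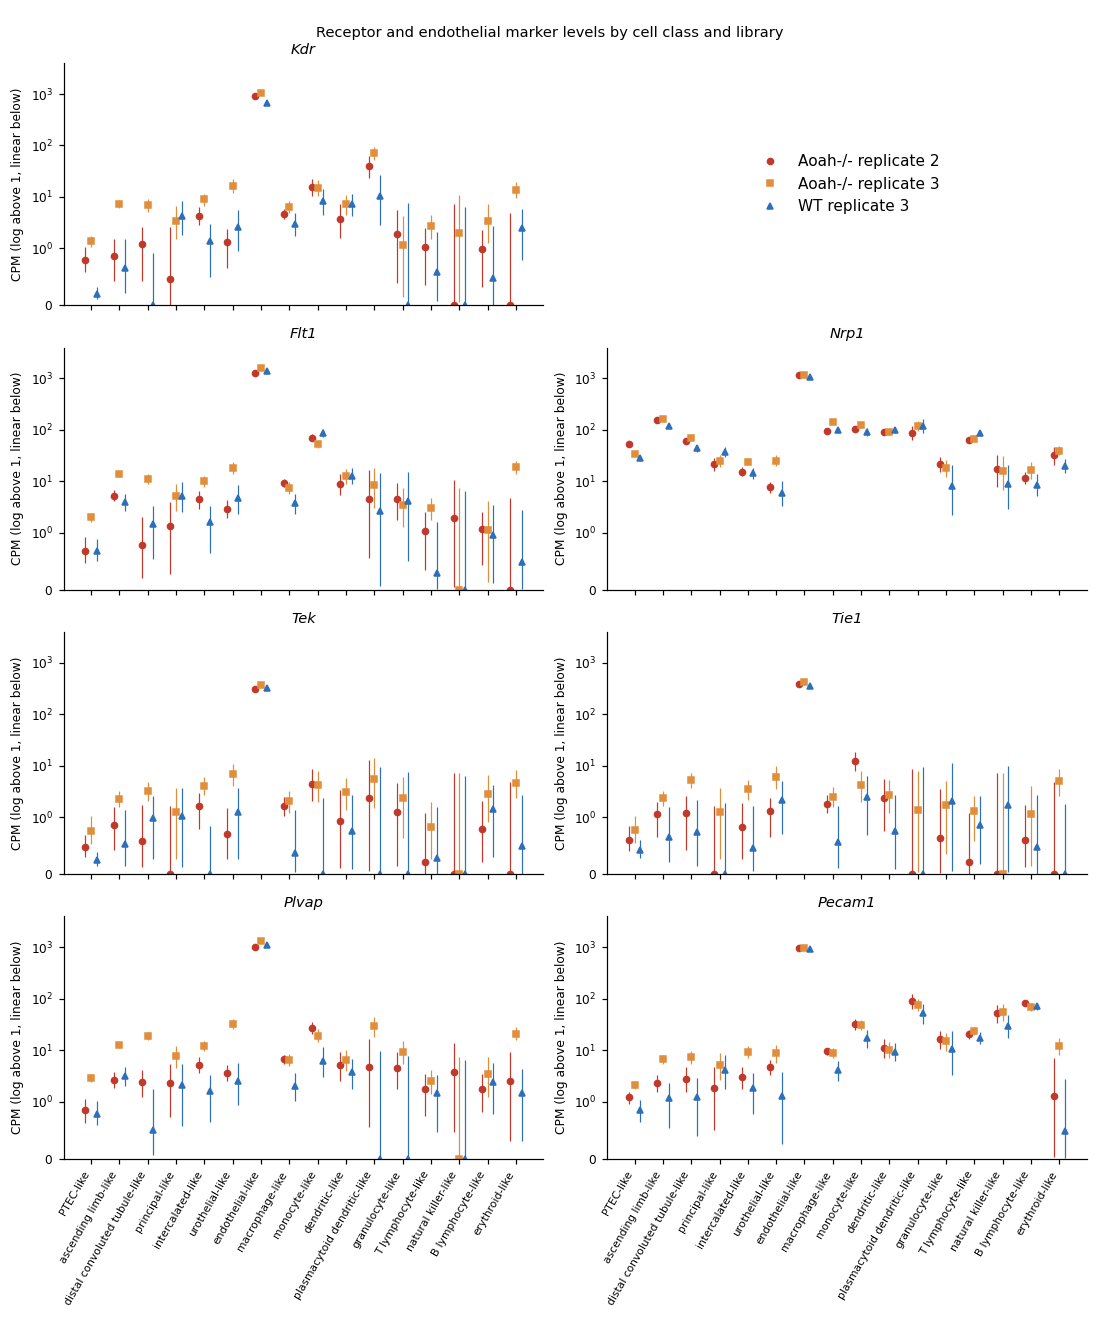
Levels of *Kdr*, *Flt1*, *Nrp1*, *Tek*, *Tie1*, *Plvap* and *Pecam1* in 16 cell classes, in CPM (log axis above 1, linear below). Points are libraries and bars exact Poisson 95% intervals. All 7 genes are highest in endothelial-like cells, *Nrp1* also lies above 20 CPM in many other classes, and *Aoah-/-* replicate 3 lies above the other libraries in most tubular classes for the other 6 genes.

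Endothelial-like cells were not uniform. They were clustered again into 11 subclusters without the 10 genes, and 2 could be named by markers: a glomerular-like subcluster (led by *Meg3*, *Ehd3* and *Plat*, 6 of 6 glomerular markers at 2-fold or more) and a descending vasa recta-like subcluster (led by *Slc14a1* and *Aqp1*, 3 of 3 markers). The others are called by their leading genes. Subclusters 7, 8 and 10, with 97, 90 and 51 cells, were led by genes of PTECs, of myeloid cells and of T lymphocytes.

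*Kdr* was highest in the glomerular-like subcluster, at 3348 CPM (95% interval 3170 to 3534), 3357 (3172 to 3549) and 3002 (2626 to 3417). The largest subcluster, led by *Npr3*, *Rgcc* and *Igf1* (299, 334 and 238 cells), was at 1709, 2180 and 1615 CPM, and the subcluster led by *Selp* and *Sele*, adhesion molecules of activated venules, at 1095, 1410 and 1315 CPM. These 3 subclusters lay above the rest: the 2 led by *Fxyd6* and *Calca* were at 290, 289 and 178 CPM and at 217, 256 and 170 CPM. The subcluster led by *Mgp* and *Gkn3* was lowest in each library, at 100.2, 182.8 and 77.8 CPM. That subcluster had 6 of 6 arterial markers at 2-fold or more, but 4 of its 10 leading genes were haemoglobin genes, so it was not named.

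*Nrp1* was also highest in the glomerular-like subcluster, at 4185, 4352 and 4509 CPM, against 1284, 1554 and 1463 CPM in the *Npr3*-led subcluster and at most 1227 CPM in the other 5. *Flt1* had another order. It was highest in the *Npr3*-led subcluster (2259, 2604 and 2585 CPM) and the *Selp*-led subcluster (1824, 2450 and 2692 CPM), and it stood at 1244, 1308 and 1376 CPM in the glomerular-like one. *Tek* and *Tie1* varied less over the subclusters than *Kdr*, with 501.9, 602.3 and 507.4 CPM and 585.7, 603.9 and 494.3 CPM in the *Npr3*-led subcluster and 318, 371.7 and 275.3 CPM and 295.1, 279.5 and 419.5 CPM in the glomerular-like one.

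*Plvap* separated these vessels. It was at 2843, 3079 and 2883 CPM in the *Npr3*-led subcluster and at 2618, 2879 and 3111 CPM in the *Selp*-led one, and at 68.7, 40.7 and 13.1 CPM in the glomerular-like subcluster, where the lowest value rested on 1 UMI. It was also low in the *Mgp*-led subcluster, at 65.4, 104.9 and 134.7 CPM. Mature glomerular capillaries are known to be fenestrated without diaphragms. *Pecam1*, by contrast, stayed between 655.5 and 1350 CPM in the 7 subclusters with at least 20 cells in each library.

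The ligands were counted in particular endothelial subclusters. *Vegfa* was at 141.6, 101.7 and 104.8 CPM in the *Mgp*-led subcluster and at 119.6, 94.97 and 91.8 CPM in the glomerular-like one, levels within the range of the tubular classes. In the *Npr3*-led subcluster, which had high *Kdr* and *Flt1*, it was at 9.45, 13.4 and 7.27 CPM. *Angpt1* was at 63.2, 50.9 and 59.9 CPM in the *Mgp*-led subcluster and at or under 26.2 CPM elsewhere in these 7 subclusters. *Angpt2* was at 65.5, 71.1 and 64.7 CPM in the descending vasa recta-like subcluster and, on 6, 2 and 11 UMIs, at 66.0, 57.8 and 119.6 CPM in 36 cells led by *Ccl21a* and *Mmrn1*, genes of lymphatic vessels. It was at or under 1.67 CPM in the 2 *Fxyd6*-led subclusters.

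**Figure D3:**
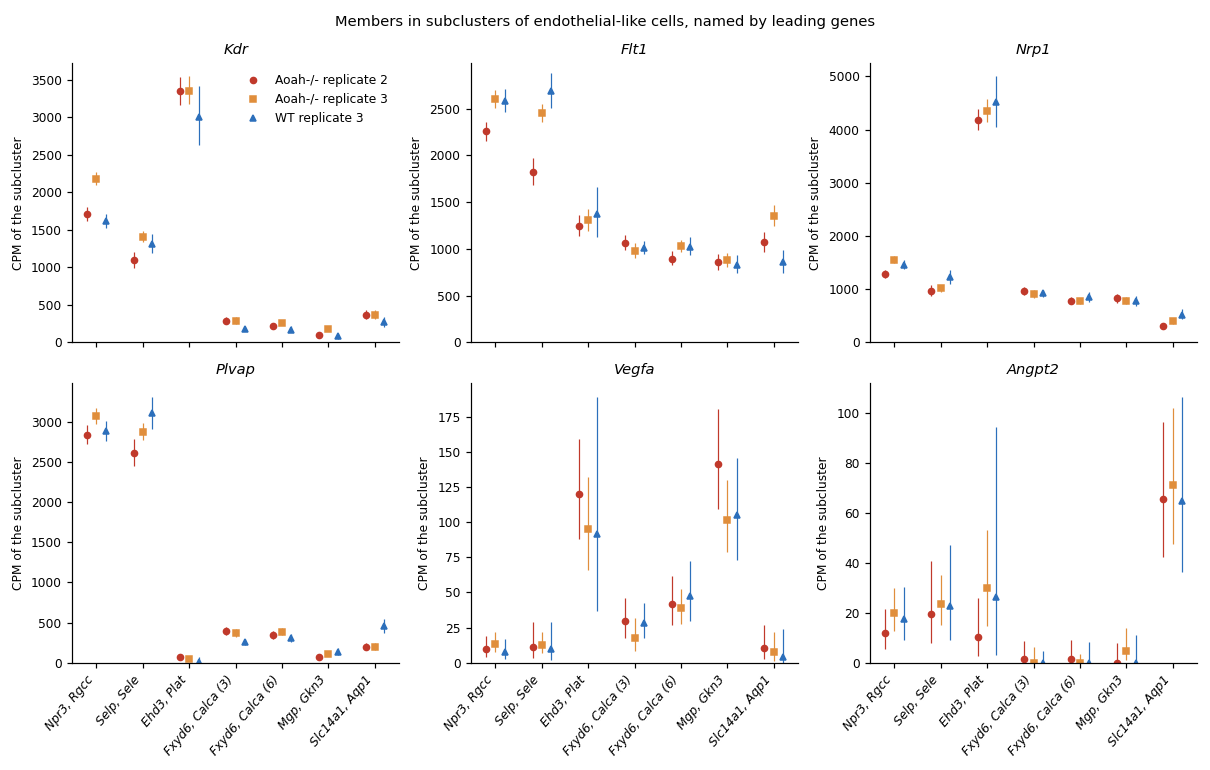
Levels of *Kdr*, *Flt1*, *Nrp1*, *Plvap*, *Vegfa* and *Angpt2* in the 7 endothelial-like subclusters with at least 20 cells in each library, in CPM of the subcluster. Points are libraries and bars exact Poisson 95% intervals. *Kdr* (3002 to 3357 CPM) and *Nrp1* (4185 to 4509 CPM) peak in the *Ehd3*, *Plat* subcluster, where *Plvap* is at most 68.7 CPM.

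PTEC-like cells were divided in the same way, and *Vegfa* and *Angpt1* split along different lines. The class was not pure. Its largest subcluster, number 1 (2609, 287 and 2450 cells), was led by haemoglobin genes, *Saa3* and *Slpi*, and subcluster 7 (21, 5 and 84 cells) had 5 of 5 platelet markers at 2-fold or more. Both stayed in the class, and their part in the comparison of genotypes was not tested. Among the 7 subclusters with at least 20 cells in each library, *Angpt1* was highest in 2 with early-segment markers. Subcluster 0 (led by *Spp2* and *Slc5a2*, all 5 markers of the early segments at 2-fold or more) was at 24.3, 27.5 and 25.1 CPM and subcluster 3 (led by *Dusp1*, *Klf6* and *Jun*, 4 of 5 such markers) at 21.1, 27.2 and 20.9 CPM. In subclusters 5 and 6, which have *Slc7a13*, a transporter of the late segment, among their leading genes but reach 2-fold in 1 and 2 of 5 late-segment markers and so were not named, *Angpt1* was at 1.98, 0.750 and 0.419 CPM and at 0.776, 0.448 and 0.601 CPM. The values did not overlap between these pairs. The small subcluster 9 (57 cells) had 5 of 5 late-segment markers at 2-fold or more. Subcluster 8 (81 cells) had 4 of 5 early-segment markers. Neither is among the 7, and their *Angpt1* levels are not given here. In subcluster 1 *Angpt1* was at 10.3, 13.7 and 8.62 CPM and *Vegfa* at 39.2, 54.7 and 39.9 CPM.

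Among the same 7 subclusters, *Vegfa* was highest in the one where *Jun*, an immediate early gene, was highest. In subcluster 3, where *Jun* was at 3750, 3124 and 2853 CPM, *Vegfa* was at 272, 295 and 246.1 CPM. In subcluster 0, also with early-segment markers and with *Jun* at 205, 153 and 159 CPM, *Vegfa* was at 71.3, 75.8 and 61.7 CPM. Subclusters 5 and 6 had the same order: 154.8, 171.7 and 195.6 CPM of *Vegfa* in subcluster 6, where *Jun* was at 1143, 993 and 1704 CPM, and 31.6, 33.6 and 31.3 CPM in subcluster 5, where *Jun* was at 51.6, 39.4 and 34.0 CPM. Subcluster 2 (*Cxcl1*, *Egr1*, *Fos*; 174, 468 and 141 cells) had *Jun* at 891.6, 668.4 and 993 CPM, below subcluster 6, and *Fos* at 446.3, 371.1 and 446.8 CPM, above the 202.3, 181.6 and 195.7 CPM of subcluster 6. Its *Vegfa* was at 102.7, 85.8 and 109.7 CPM, below subcluster 6, so the order of *Vegfa* did not follow *Fos*. Subcluster 4 (*Cyb5a*, *Etfb*) was lowest in *Vegfa*, at 25.2, 26.8 and 20.6 CPM. Its *Jun*, at 78.5, 59.4 and 39.8 CPM, lay above that of subcluster 5, so the order of *Vegfa* did not follow *Jun* throughout either. Immediate early genes are known to rise during warm dissociation of tissue, and the part of dissociation in these *Vegfa* levels was not tested. The subclusters were made from genes that include *Jun*, so no test between them is given.

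**Figure D4:**
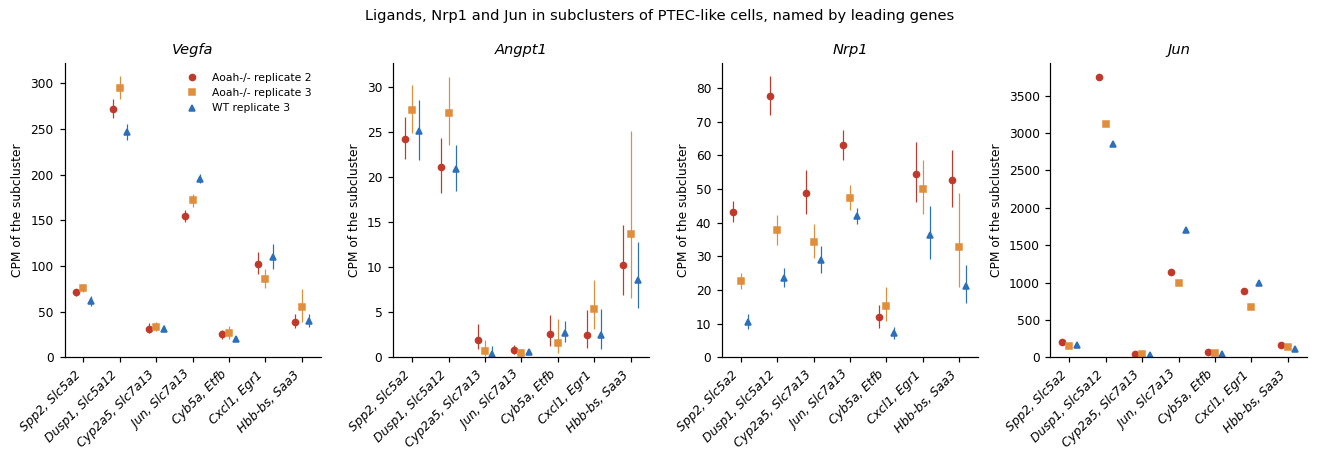
Levels of *Vegfa*, *Angpt1*, *Nrp1* and the immediate early gene *Jun* in 7 PTEC-like subclusters, in CPM of the subcluster. Points are libraries, and bars (first 3 panels) exact Poisson 95% intervals. *Angpt1* is above 20 CPM in the 2 subclusters with early-segment markers and at most 13.7 CPM in the others, while *Vegfa* and *Jun* are both highest in the *Dusp1*, *Slc5a12* subcluster.

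The genotypes were compared by edgeR's quasi-likelihood test on UMIs summed per library and class, 2 *Aoah-/-* libraries against 1 WT library. The spread came from the 2 *Aoah-/-* libraries alone, with 1 residual degree of freedom moderated over all genes, so the genotype cannot be told apart from the 1 WT mouse. In bulk sums of a class, a change in the mix of its cells and a change per cell cannot be told apart either. A gene was called at a Benjamini-Hochberg adjusted p under 0.05 over all genes tested in the class. In endothelial-like cells 127 of 12044 genes were called (1.05%), and none of the 10 members. In PTEC-like cells it was 187 of 14080 (1.33%) and again no member. The ascending limb-like class had 17 of 13801 genes called (0.123%) and no member, and the macrophage-like class 0 of 12656 (0%), with 221 genes at an unadjusted p under 0.05 and 12 called by DESeq2. The fibroblast-like class had 21 of 1782 (1.18%), with 2 members tested and neither called. At an unadjusted p under 0.05 the members numbered 1 of 10 in endothelial-like cells (13.4% of all genes tested). It was 2 of 10 in PTEC-like cells (26.5%) and 3 of 10 in ascending limb-like cells (12.4%). It was 2 of 9 in macrophage-like cells (1.75%) and 0 of 2 in fibroblast-like cells (7.52%). Neither *Nrp1* nor *Vegfa* was among the 2 of macrophage-like cells, and the other members were low there. *Pecam1*, the highest of these in each library, was at 9.493, 8.839 and 4.115 CPM, and *Plvap* at 6.713, 6.429 and 2.057 CPM. In endothelial-like cells *Pecam1* was at 986.3, 955 and 941.6 CPM. The part of endothelial RNA in the macrophage-like counts was not tested.

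A fold rule without a test (at least 1.5-fold in the same direction in replicates 2 and 3 of *Aoah-/-*, among genes of at least 20 CPM) gave a similar account. It took 3.06% of 6805 genes in endothelial-like cells and 0 of 8 members. In PTEC-like, ascending limb-like and macrophage-like cells it took 3.32%, 2.77% and 3.5% of genes and 0 of 2 members each. In fibroblast-like cells it took 21.4% of genes and 1 of 4 members, with 11 and 19 *Aoah-/-* cells behind those values.

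*Kdr* was the member nearest to a call in endothelial-like cells. Both *Aoah-/-* libraries (921.7 and 1070 CPM) lay above the WT library (678 CPM). The fitted log2 difference was 0.53 ± 0.14 (SE), with an adjusted p of 0.117 by edgeR. *Flt1*, which binds the same ligand, had another order: the WT level (1426 CPM) lay between the *Aoah-/-* levels (1291 and 1598 CPM), and the log2 difference was -0.01 ± 0.15. The other differences were 0.17 ± 0.13 for *Tie1*, 0.12 ± 0.13 for *Nrp1*, 0.08 ± 0.16 for *Plvap*, 0.07 ± 0.14 for *Tek* and 0.02 ± 0.13 for *Pecam1*. The ligands within the class gave 0.08 ± 0.15 for *Vegfa*, 0.12 ± 0.32 for *Angpt1* and 0.07 ± 0.25 for *Angpt2*. All of these had adjusted p of 0.603 or more by edgeR. With the unnamed cluster of mixed endothelial and proximal tubule RNA added to the class, a choice made after seeing the data, the difference of *Kdr* was 0.20 (adjusted p = 0.970), and those of *Nrp1*, *Tek*, *Tie1*, *Plvap*, *Pecam1* and *Angpt2* lay between -0.30 and -0.16.

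The mix of endothelial-like cells also differed between the libraries. The glomerular-like subcluster, where *Kdr* was highest, made up 10.3% (95% Clopper-Pearson interval 8.46% to 12.4%) and 7.51% (6.06% to 9.18%) of the class in the *Aoah-/-* libraries and 3.75% (2.44% to 5.49%) in the WT library. With the subcluster shares of the WT library applied to each library, the log2 difference of *Kdr* was 0.26 instead of 0.55 for the plain ratio of levels. Within subclusters, *Kdr* was above WT in both *Aoah-/-* libraries in 6 of 7, and below in both in 0 of 7. The exception was the *Selp*-led subcluster, at 1095 and 1410 CPM against 1315 CPM. *Tie1* was above WT in 6 of 7 and below in 1, whereas *Nrp1* was above in 1 and below in 4. Applying the WT shares turned the sign of 4 members, *Nrp1* from 0.15 to -0.06, *Vegfa* from 0.11 to -0.12, *Angpt2* from 0.08 to -0.06 and *Flt1* from 0.02 to -0.03. The WT endothelial-like class also held more erythroid marker RNA (6919 CPM summed, against 396.4 and 2220 CPM) and less granulocyte marker RNA (5.79 CPM, against 83.5 and 249.1 CPM), and the part of these in the differences was not tested.

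In PTEC-like cells *Angpt1* had the smallest p of the members. The *Aoah-/-* libraries were at 12.7 CPM (95% interval 11.8 to 13.7) and 13.8 (12.8 to 14.9) and the WT library at 7.71 (7.09 to 8.38). The log2 difference was 0.78 ± 0.11, with an adjusted p of 0.0524 by edgeR, just outside the threshold. The early-segment subcluster 0 made up 21.7% and 26.8% of PTEC-like cells in the *Aoah-/-* libraries and 11.2% in the WT library. With the WT subcluster shares applied, the log2 difference was 0.15 instead of 0.78. Inside subcluster 0 the WT level (25.1 CPM) lay between the *Aoah-/-* levels (24.3 and 27.5 CPM). Over the 7 subclusters with enough cells, *Angpt1* was above WT in both *Aoah-/-* libraries in 4 and below in both in 1. The parts of cell mix and of level per cell were not tested.

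Within PTEC-like subclusters *Vegfa* was above WT in both *Aoah-/-* libraries in 4 of 7 and below in both in 2. In the class as a whole *Vegfa* was lower in both *Aoah-/-* libraries (117.4 and 129.9 CPM) than in the WT library (141.2 CPM). The log2 difference was -0.20 ± 0.09, with an adjusted p of 0.228 by edgeR, and -0.05 with the WT subcluster shares applied. *Nrp1* was at 52.9 and 34.6 CPM against 28.4 CPM in these cells, a log2 difference of 0.62 ± 0.26 (adjusted p = 0.207, edgeR). Unlike *Angpt1*, it was 0.69 with the WT shares applied, and both *Aoah-/-* libraries lay above WT in 7 of 7 subclusters. The *Aoah-/-* libraries differed from each other more than *Aoah-/-* replicate 3 did from WT: without *Aoah-/-* replicate 2 the log2 difference was 0.28, and without *Aoah-/-* replicate 3 it was 0.89. The remaining members had at most 141 UMIs per library in PTEC-like cells. Their fitted differences ran from 0.28 for *Angpt2* to 2.48 for *Kdr*. Endothelial marker RNA in that class was also higher, at 16.2 and 20.9 CPM summed against 10.1 CPM in WT, and its part in these differences was not tested.

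Ascending limb-like cells showed the same 3 genes with another pattern. *Nrp1* was at 157.5 and 164.8 CPM against 117.3 CPM (log2 0.53 ± 0.12, adjusted p = 0.162, edgeR). *Angpt1* was at 3.54 and 4.30 CPM against 7.81 CPM, from 45, 64 and 59 UMIs (log2 -0.92 ± 0.28, adjusted p = 0.259), the opposite sign to PTEC-like cells. *Vegfa* was at 106.4 and 78.4 CPM against 132.7 CPM (log2 -0.45 ± 0.19, adjusted p = 0.409). None of these genes was called. The difference in *Angpt1* between the 2 classes was not tested. In macrophage-like cells *Nrp1* (93.2 and 141.5 against 100.8 CPM) and *Vegfa* (42.3 and 45.1 against 33.5 CPM) had log2 differences of 0.04 ± 0.38 and 0.21 ± 0.25.

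**Figure D5:**
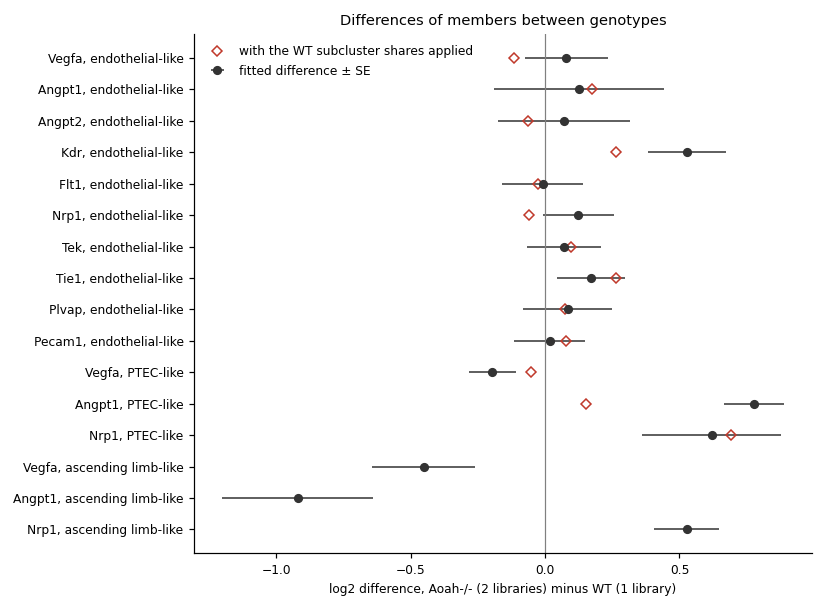
Log2 differences of members between the 2 *Aoah-/-* libraries and the WT library in 3 classes. Filled points are edgeR fits with SE bars, none with an adjusted p under 0.05, and open diamonds are the log2 ratios with the subcluster shares of the WT library applied (not made for the ascending limb). *Angpt1* in PTEC-like cells lies at 0.78 in the fit and at 0.15 with the WT shares, and *Kdr* in endothelial-like cells at 0.53 and 0.26.

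Of the other genes of the pathway, a list of 27 that were all in the files, 25 were tested in endothelial-like cells and 21 in PTEC-like cells, and none was called in either class. Their median log2 difference was 0.06 in endothelial-like cells, against 0.01 over all genes tested and 0.08 over the members. In PTEC-like cells it was 0.35, against 0.01 over all genes and 0.87 over the members, 7 of which rested on at most 141 UMIs per library. In endothelial-like cells 5 of the 25 had an unadjusted p under 0.05, against 13.4% of all genes tested. These were named after their values were seen: the apelin receptor *Aplnr* (77.1, 123.7 and 48.8 CPM, log2 1.03 ± 0.23, adjusted p = 0.0621 by edgeR), the Notch ligand *Dll4* (156, 148.8 and 116.7 CPM), *Hif1a* (117.9, 117.8 and 91.4 CPM), *Egln3* (28.7, 31.2 and 20.7 CPM) and *Sema3a* (8, 4 and 21 UMIs).

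The other members of the ligand and receptor families were placed as follows. *Vegfb*, a ligand of VEGFR1, was higher in PTEC-like cells (54.0, 49.1 and 45.8 CPM) than in endothelial-like cells (16.0, 15.7 and 14.9 CPM), like *Vegfa*. Mural-like cells were at 24.9, 54.1 and 39.1 CPM of *Vegfb*, from 10, 73 and 8 UMIs. *Vegfc*, a ligand of VEGFR3 and of lymphatic growth, was endothelial, at 93.3, 112.3 and 83.8 CPM against 2.46, 1.75 and 1.69 CPM in PTEC-like cells, and within the class it was highest in the *Mgp*-led subcluster at 559.9, 691.6 and 497 CPM. Its receptor *Flt4* was at 90.3, 105.8 and 84.4 CPM in endothelial-like cells, and *Nrp2*, the co-receptor for VEGF-C, at 122.7, 152.2 and 125.5 CPM. *Ptprb*, the phosphatase that restrains TIE2, was at 1553, 1580 and 1504 CPM there. *Vegfd* (older symbol *Figf*) was at 145.3 CPM (391 UMIs) in the fibroblast-like cells of the WT library and rested on 11, 4 and 3 UMIs in endothelial-like cells. The 11 fibroblast-like cells of *Aoah-/-* replicate 2 gave 3 UMIs (79.2 CPM). Mural-like cells were at 7.47, 17.8 and 43.95 CPM of *Vegfd*, from 3, 24 and 9 UMIs. *Pgf*, another ligand of VEGFR1, was at 37.4, 12.6 and 48.8 CPM in mural-like cells from 15, 17 and 10 UMIs and gave 4, 9 and 4 UMIs in endothelial-like cells. *Angpt4* gave 1, 0 and 1 UMIs in endothelial-like cells.

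Across 51 sums of a class in a library, from 18 classes, the genes most like *Kdr* by Pearson's r of log2(CPM + 10) were *Plvap* (0.963), the endothelial cadherin *Cdh5* (0.960) and *Podxl* (0.954). *Plvap* was most like *Emcn* (0.986), *Podxl* (0.981) and *Egfl7* (0.979). *Vegfa* had looser company, with the glycolytic enzymes *Tpi1* (0.804) and *Pgam1* (0.802) and the uncharacterised gene *1110065P20Rik* (0.792) nearest. *Angpt1* was nearest to *Pgp* (0.804), *Cog7* (0.803) and *Plcl1* (0.769). These coefficients are descriptions: sums of 1 library share its free RNA and depth, and the endothelial ones rest on a single class that is far above the rest.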

How the data were processed

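The authors deposited 1 matrix of raw UMI counts per library. The submitters' processing notes name Cell Ranger 3.1.0, STAR, Seurat 4.2.0 and the mm10 build, while the matrix headers name cellranger 6.1.2, so the version that made the counts is uncertain. Kidneys had been perfused, digested with collagenase and DNase, strained and cleared of erythrocytes.

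Barcodes under 200 genes or over 50% mitochondrial UMIs were left out, and the rest were clustered with scanpy 1.11.5 (2000 variable genes, 50 principal components, 15 neighbours, Leiden resolution 1). The 10 genes, the 27 pathway genes, *Aoah*, *Cd74* and the class II genes were left out of the clustering. A cluster of at least 50 cells was named where the 5 best markers of a class had a mean log2 fold of at least 2 over the median cluster (CPM + 10), at least 3 markers reached 2-fold, and the 10 leading genes did not belong to another class. This scoring rule was set after the clusters were seen. Names are rebuilt from markers. Doublets were kept, because Scrublet called 544, 0 and 201 cells and its threshold failed in *Aoah-/-* replicate 3. The members and lists were chosen with earlier results of these data known. The genes named are the 10 members, 8 close relatives from the pathway list, and the pathway genes picked in endothelial-like cells after their values were seen. None of the latter was past the adjusted threshold. No pathway gene was picked in that way in PTEC-like cells.

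Levels are sums over the cells of a class in 1 library, per 1000000 UMIs. Genotypes were compared with edgeR 4.0.16 (R 4.3.3; TMM, filterByExpr, quasi-likelihood test, adjusted over all genes tested), and SE is the log2 difference divided by the square root of F. The p-values measure the spread between these libraries only, and intervals and floors (3 counts) cover counting error. The procedure was tried on simulated data, but no error rate is given here. How the test behaves with 1 residual degree of freedom is therefore not shown. Alternatives were DESeq2 1.42.0, other size factors, no filter on low counts, other cell filters, resolution 2, leaving out high Scrublet scores, clustering with the members allowed, the fold rule (CPM + 1), and leaving out a library. Leaving out or adding mixed endothelial clusters, and applying the WT subcluster shares, were added after seeing the data.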

Additional observations from a re-analysis of the deposited data

Results flagged for a closer look

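*Vegfa* was higher in both *Aoah-/-* libraries than in the WT library in endothelial-like cells and lower in both in PTEC-like and ascending limb-like cells. The log2 ratio of the *Aoah-/-* mean over WT was 0.1143 in endothelial-like cells, -0.1915 in PTEC-like cells and -0.5223 in ascending limb-like cells. The difference between classes was not tested. In endothelial-like cells *Aoah-/-* replicate 3 (39.1 CPM) lay close to the WT library (38.4 CPM, from 126 UMIs). With the subcluster shares of the WT library applied, the values were -0.12 in endothelial-like cells and -0.05 in PTEC-like cells, of the same sign.

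Signals of members were also present in cells that entered no comparison. An unnamed cluster of 150 WT cells and 1 *Aoah-/-* cell, with mesothelial and fibroblast markers, had *Kdr* at 228 CPM in the WT library, with *Flt1* at 1.69 CPM there. An unnamed cluster led by *Ccl2*, *Vcam1* and *Cp* (186, 348 and 131 cells) had *Nrp1* at 171.6, 224.4 and 115.8 CPM. Barcodes left out by the filters held *Vegfa* at 47.24, 40.6 and 41.34 CPM. No group held enough libraries to test for a library far from the others.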

How the results depend on the processing

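No paired analysis was possible because the groups share only replicate number 3. Without 1 *Aoah-/-* library the differences are values with no test, so no count of calls could be had, and without the WT library there is no comparison. The number of genes called moved widely. In endothelial-like cells (127) it was 19 with DESeq2, 508 with no filter on low counts, 208 by the fold rule, 269 at 20% mitochondrial UMIs, 330 at 500 genes, 73 with members allowed in the clustering, 63 without the mixed subclusters and 1 with the mixed cluster added. In PTEC-like cells (187) it was 52 with DESeq2-style size factors, 468 with DESeq2, 1801 with no filter, 5 at 20% mitochondrial UMIs, 93 at 500 genes, 471 without high Scrublet scores and 286 with members allowed. In ascending limb-like cells (17) it was 3, 68, 698, 176 (fold rule), 11 (20% mitochondrial UMIs), 49 (resolution 2), 50 (Scrublet) and 2 (members allowed), the first 3 under size factors, DESeq2 and no filter. In macrophage-like cells (0) it was 12 with DESeq2, 8 with no filter and 192 by the fold rule. In fibroblast-like cells (21) it was 0 with size factors, 6 with DESeq2, 46 with no filter, 1477 by the fold rule, 65 at 20% mitochondrial UMIs, 34 at 500 genes, 862 at resolution 2, 1350 (Scrublet) and 1 (members allowed). The causes were not tested.

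Members called, 0 in every class as reported, were 1 in endothelial-like cells with no filter (*Kdr*, 0.54, adjusted p = 0.00968 by edgeR). In PTEC-like cells they were 1 with DESeq2, 2 with no filter, 1 without high Scrublet scores and 1 with members allowed. *Angpt1* was called under all 4, at 0.73 to 0.78 (adjusted p 0.00292 to 0.0407). In ascending limb-like cells 4 were called with no filter, *Nrp1* among them (0.53, adjusted p = 0.0193). In fibroblast-like cells 1 was past the fold rule, 1 was called at 20% mitochondrial UMIs (*Nrp1*, 1.89), 2 at resolution 2 and 4 without high Scrublet scores. The number of all genes called also rose under each of these alternatives, as given above. The share of all genes is not set beside these counts of members, so they are not a result about the members.

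The sign turned for small differences, given here as log2 values. At 20% mitochondrial UMIs these were endothelial *Angpt1* at -0.013, *Angpt2* at -0.045 and *Pecam1* at -0.038. At 500 genes they were *Angpt2* at -0.0097, *Pecam1* at -0.016 and macrophage *Nrp1* at -0.23. Without high Scrublet scores they were *Tek* at -0.0049, *Plvap* at -0.0074, *Pecam1* at -0.028 and fibroblast *Vegfa* at -0.50. At resolution 2 they were macrophage *Nrp1* at -0.064 and fibroblast *Vegfa* at -0.59. With members allowed they were endothelial *Pecam1* at -0.014 and fibroblast *Vegfa* at -0.58. The fold rule gave *Flt1* 0.018. With the mixed cluster, *Angpt2* was -0.29, *Nrp1* -0.16, *Tek* -0.28, *Tie1* -0.16, *Plvap* -0.27 and *Pecam1* -0.30. With the WT subcluster shares, endothelial *Vegfa* was -0.12, *Nrp1* -0.06 and *Angpt2* -0.06, and *Flt1* was -0.03 against a plain ratio of 0.02. *Plvap* ran from -0.10 without *Aoah-/-* replicate 3 to 0.30 without *Aoah-/-* replicate 2. Of the other values under an alternative, 207 stayed on the same side of the threshold or, where there was no test, moved by less than the spread, and 13 moved by more.

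In this paragraph a value before ± is the mean of 3 libraries, and ± is the SD between the 2 *Aoah-/-* libraries. The median over the 7 receptor and marker genes of the endothelial share of UMIs was 84.9% ± 3.31. It was 90.5% at 20% mitochondrial UMIs, 89.4% without high Scrublet scores and 83.5% to 85.9% without 1 *Aoah-/-* library. Their median level was 999.3 CPM ± 59.2, 1060 without high Scrublet scores and 1132 as the mean over cells. Their median share of cells with a UMI was 52.2% ± 7.10, 37.4% at 500 UMIs, 61.7% at 2000 and 74.9% unthinned. Depth limited the low genes, *Angpt2* above all. With 1 WT library, no value here has a replicate check on the WT side.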
